A study of Mus musculus with 6 samples.

Results

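The members described here are the genes of the constitutive proteasome, the protease complex that degrades proteins marked with ubiquitin, in mouse embryonic fibroblasts that were starved. They were chosen by symbol, as every gene measured with a probe set of its own whose symbol begins with Psma, Psmb, Psmc or Psmd followed by a number. The immunoproteasome genes Psmb8, Psmb9 and Psmb10 were left out. The rule found 35 genes of the 12393 tested, 15 of the 20S core particle (Psma and Psmb) and 20 of the 19S regulatory particle (Psmc and Psmd). The rule itself uses no expression value, but the members were chosen with earlier results of these data known. The study hybridised RNA of wild-type fibroblasts, which are connective tissue cells cultured from embryos, to short-oligonucleotide arrays. One group of 3 arrays held cells starved for 6 h, and the control group of 3 arrays held cells kept in normal growth medium. What the starved cells lacked, whether serum, amino acids or another nutrient, is not in the labels, nor are embryonic age and strain. Titles name every array a biological replicate. They do not say what was replicated, such as separate cultures or embryos, so a p-value reflects the spread of these samples alone, and part of that spread may be technical.

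The 20S core is a barrel of stacked rings. Its outer alpha rings form a gate, and its inner beta rings carry the proteolytic sites on Psmb5, Psmb6 and Psmb7. The 19S particle caps the barrel: its Psmc subunits are ATPases that unfold substrates and push them into the core, and most of its Psmd subunits bind ubiquitin, remove it or hold the particle together. In mammalian cells transcription of most subunit genes can be raised together by the factor encoded by Nfe2l1 when proteasome activity is short, through antioxidant response elements. Autophagy and the proteasome both return amino acids to starved cells.

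Values are log2 signals of 1 probe set per gene, the brightest where a gene had several, and a difference is the starved mean less the control mean, also in log2 units. Probe sets differ in how strongly they bind their targets, so genes are compared by their differences and not by their levels. A gene is said to rise or fall where limma's fit over all 12393 genes gave a Benjamini-Hochberg adjusted p below 0.05, and adjusted p below always means that value. That fit called 44.1% of all genes, 22.1% higher and 22% lower in starved cells, with a median difference of −0.048. RMA fixes the overall distribution of each array, and poly-A spike-in RNAs lay 0.37 higher in starved arrays. Hybridization spike-ins lay 0.19 higher in them. Directions are therefore relative to the other genes on the array, and a rise below 0.37 lies below 0 when arrays are centred on the poly-A spike-ins. Of 11 fibroblast markers 5 rose, 3 fell and 3 did not pass. Col1a2, Vim and S100a4 had signals above 13 in every array, while Thy1 (4.99 in control arrays) and Fap (4.90) were dim and fell by 0.40 and 0.45. The mean signal over the macrophage and blood list (11 genes) was 4.78 to 4.82 in control and 4.65 to 4.82 in starved arrays. It was 4.53 to 4.64 and 4.58 to 4.64 for the epithelial list (5 genes), and 3.80 to 3.84 and 3.66 to 3.68 for the endothelial list (5 genes). Of these lists 1 gene rose and 2 fell (macrophage and blood), 1 rose (epithelial) and 2 fell (endothelial), and the part of other cells in the results was not tested. The difference between the 3′ and 5′ control probe sets of beta-actin, a sign of RNA integrity, was 0.011 to 0.027 in control and 0.060 to 0.14 in starved arrays. That of Gapdh was −0.023 to 0.030 and −0.095 to 0.022, so that its groups overlapped. The part of RNA integrity in the results was not tested.

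Starved fibroblasts had lower signals of 20S core genes, mainly of the beta ring, while 19S genes went both ways. All 15 of the 20S genes had a difference below 0, as did 7077 of the 12393 genes tested. Of the 15, 8 fell, 0 rose and 7 did not pass, where 22% of all genes fell. Of the 20 genes of the 19S particle 3 fell, 4 rose and 13 did not pass, neither share above that of all genes. The median difference was −0.23 for the 20S genes and −0.12 for the 19S genes. All starved arrays lay below all control arrays in 22 members and above them in 6, with overlap in 7, where 28.4% and 25.7% of all genes did so and 54% did not overlap. Over both particles 42.9% of members were called, close to the 44.1% of all genes. Most members are bright, however. With the dimmest 40% of genes left out, 52.9% of 34 members were called, below the 65.7% of all 7436 genes left. The differences were small: the largest belonged to Psmb5, a fall of 1.42-fold, and 17.8% of all genes differed by more. Of all genes 543 differed by at least 1 on the log2 scale, and 0 of the 35 members did. Signals of bulk RNA do not tell fewer transcripts per cell from fewer cells that express the gene, and these cannot be told apart here.

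**Figure D1:**
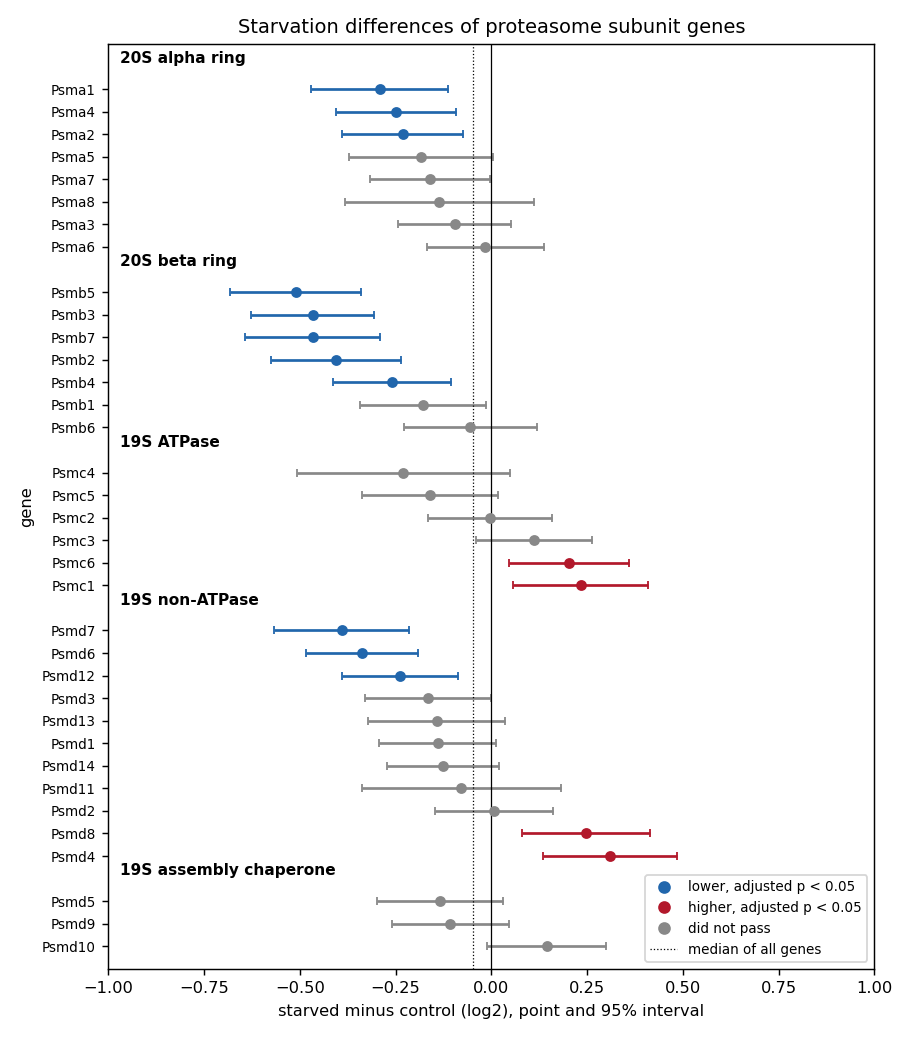
Starved minus control difference (log2) of each of the 35 member genes, with its 95% interval from limma, in blocks by part of the complex; coloured points passed an adjusted p of 0.05 and the dotted line is the median of all genes. All 15 points of the 20S core lie below 0, as do 7077 of the 12393 genes tested. The 4 points that rose are all in the 19S particle, and these 4 rises lie below 0 after centring on poly-A spike-ins.

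Promoters of members that fell and that rose are shown because subunit genes are known to share regulatory elements there. RefSeq start sites on build GRCm38.p6 were found for 28 of the 35 members, with 30 windows in all, each running from 250 bases before the start site to just past it. Each sequence below is the 250 bases before the start site, on the gene's strand. Capitals mark matches on either strand to TGACNNNGC, the core of the antioxidant response element, or to CCAAT, the site of the factor NF-Y, read as ATTGG on the other strand. Among members Psmb5 and Psmb3 fell most, and Psmd4 and Psmd8 rose most.
Psmb5, chr14:54617996-54618245, minus strand: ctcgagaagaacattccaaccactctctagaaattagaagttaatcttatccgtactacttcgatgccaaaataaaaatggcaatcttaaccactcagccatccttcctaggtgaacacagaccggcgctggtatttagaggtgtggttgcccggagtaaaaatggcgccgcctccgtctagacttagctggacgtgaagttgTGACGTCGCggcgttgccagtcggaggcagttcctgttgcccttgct
Psmb3, chr11:97703184-97703433, plus strand: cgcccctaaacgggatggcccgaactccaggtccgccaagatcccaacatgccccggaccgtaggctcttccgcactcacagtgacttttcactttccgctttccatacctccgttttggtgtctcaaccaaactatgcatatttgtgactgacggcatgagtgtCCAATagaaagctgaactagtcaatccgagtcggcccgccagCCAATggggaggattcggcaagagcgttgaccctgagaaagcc
Psmd4, chr3:95042615-95042864, minus strand: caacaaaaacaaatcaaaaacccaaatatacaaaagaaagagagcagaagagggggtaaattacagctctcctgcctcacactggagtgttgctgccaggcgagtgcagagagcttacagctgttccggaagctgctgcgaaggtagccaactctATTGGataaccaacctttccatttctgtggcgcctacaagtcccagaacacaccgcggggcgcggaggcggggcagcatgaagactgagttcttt
Psmd8, chr7:29180674-29180923, minus strand: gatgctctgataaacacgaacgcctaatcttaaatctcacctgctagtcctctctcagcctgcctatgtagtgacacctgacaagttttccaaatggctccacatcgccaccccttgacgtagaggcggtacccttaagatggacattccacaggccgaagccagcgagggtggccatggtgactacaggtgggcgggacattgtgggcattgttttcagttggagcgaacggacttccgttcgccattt
The Psmb5 window holds 1 match to TGACNNNGC, whose first base lies at position −47 from the start site. The Psmb3 window holds 2 CCAAT matches and the Psmd4 window 3, of which 1 lies in the printed part, and the Psmd8 window holds neither motif. Over all members 5 of 30 windows held TGACNNNGC (16.7%) and 11 held CCAAT (36.7%). The same motifs were present in 12.4% and 37.4% of 32851 RefSeq windows of this length, and in 13.8% and 37.1% of the windows of genes on the array. Of 8 windows of members that fell 2 held TGACNNNGC, and of 4 windows of members that rose 1 did. CCAAT was held by 6 of 12 windows of 20S genes and by 5 of 18 of 19S genes. Matches to the 2 motifs can share at most an end base, and a match describes letters only.

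The beta ring held the largest falls. Of its 7 genes 5 fell and the other 2 did not pass (median −0.41), where 22% of all genes fell. Psmb5, the subunit with the chymotrypsin-like site, had signals of 11.45, 11.38 and 11.37 in control and 11.01, 10.83 and 10.82 in starved arrays. Every starved array lay below every control array, with a difference of −0.51 (SE 0.077, adjusted p = 0.0004). Psmb7, which carries the trypsin-like site, had signals of 10.45, 10.52 and 10.46 in control and 9.91, 9.97 and 10.15 in starved arrays. Its groups did not overlap either, and it fell 1.38-fold (−0.47, SE 0.079, adjusted p = 0.000883). Psmb6, with the caspase-like site, did not pass. Its signals were 10.71, 10.59 and 10.70 in control and 10.72, 10.59 and 10.53 in starved arrays, so that the groups overlapped. Its difference was −0.055 with a 95% interval from −0.23 to 0.12 (adjusted p = 0.595). The difference between these genes was not itself tested.

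The other beta subunits have no active site and hold the ring together. Psmb3 fell by a like amount to Psmb7, with signals of 11.12, 11.06 and 11.14 in control and 10.69, 10.68 and 10.55 in starved arrays (difference −0.47, SE 0.072, adjusted p = 0.000492). A second probe set of Psmb3, nearly as bright, fell by 0.45. Psmb2 had signals of 10.76, 10.78 and 10.75 in control and 10.48, 10.27 and 10.32 in starved arrays and fell by 0.41 (SE 0.075, adjusted p = 0.00157). Its control arrays lay close together, and its starved arrays were spread more widely below them. Psmb4 fell less, with signals of 11.93, 11.94 and 11.91 in control and 11.73, 11.68 and 11.59 in starved arrays and no overlap of the groups (difference −0.26, SE 0.069, adjusted p = 0.0119). Psmb1 did not pass at −0.18 (SE 0.074, adjusted p = 0.0748), although its starved arrays all lay below its control arrays. It passed without starved replicate 1 (−0.23, adjusted p = 0.0322), and of its dimmer probe sets 1 fell (−0.32) and another did not pass (−0.19).

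The alpha ring, whose subunits hold the gate and dock the caps, had smaller differences. It had 8 measured genes, of which 3 fell and 5 did not pass (median −0.17), where 22% of all genes fell. Psma1 had signals of 10.42, 10.32 and 10.51 in control and 10.17, 10.02 and 10.19 in starved arrays and fell by 0.29 (SE 0.08, adjusted p = 0.014). All starved arrays lay below all control arrays. With the mean of its probe sets it did not pass (−0.10), as its 2 dimmer ones lay at −0.11 and 0.10. Those 2 had control means of only 3.06 and 2.84, against 10.42 for the one used. Psma4 had signals of 11.74, 11.67 and 11.65 in control and 11.43, 11.37 and 11.50 in starved arrays (difference −0.25, SE 0.07, adjusted p = 0.0154). Psma2 had signals of 11.80, 11.81 and 11.82 in control and 11.64, 11.48 and 11.61 in starved arrays (difference −0.23, SE 0.071, adjusted p = 0.0232). In both the groups did not overlap, but each of the 3 alpha genes lost its call in some fits that left out 1 array. Such fits have fewer arrays, and the differences of the 3 genes stayed between −0.34 and −0.18 in them. Psma1 did not pass without control replicate 3 (adjusted p = 0.0613) or starved replicate 2 (adjusted p = 0.0516). Psma4 did not pass without control replicate 1 (adjusted p = 0.0669) or starved replicate 2 (adjusted p = 0.0511). Psma2 did not pass without control replicate 1 (adjusted p = 0.0610), 2 (adjusted p = 0.0651) or 3 (adjusted p = 0.0695), or without starved replicate 2 (adjusted p = 0.0764). Without starved replicate 2 the count of 20S genes that fell was 5 in place of 8.

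The remaining alpha subunits gave differences of −0.18 (Psma5), −0.16 (Psma7), −0.096 (Psma3) and −0.015 (Psma6), and none of them passed. Psma5 has a second probe set of nearly the same brightness, which fell by 0.26 (adjusted p = 0.0135 in a fit over all probe sets), so its result rests on the choice between them. Psma6 is the alpha subunit whose values moved least, with a 95% interval from −0.17 to 0.14. Its next brightest probe set lay just above 0, at 0.022, and did not pass. Psma8, a testis form of an alpha subunit, was the only member that a filter on the dimmest 40% of genes removed, and its difference of −0.14 did not pass (adjusted p = 0.349).

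**Figure D2:**
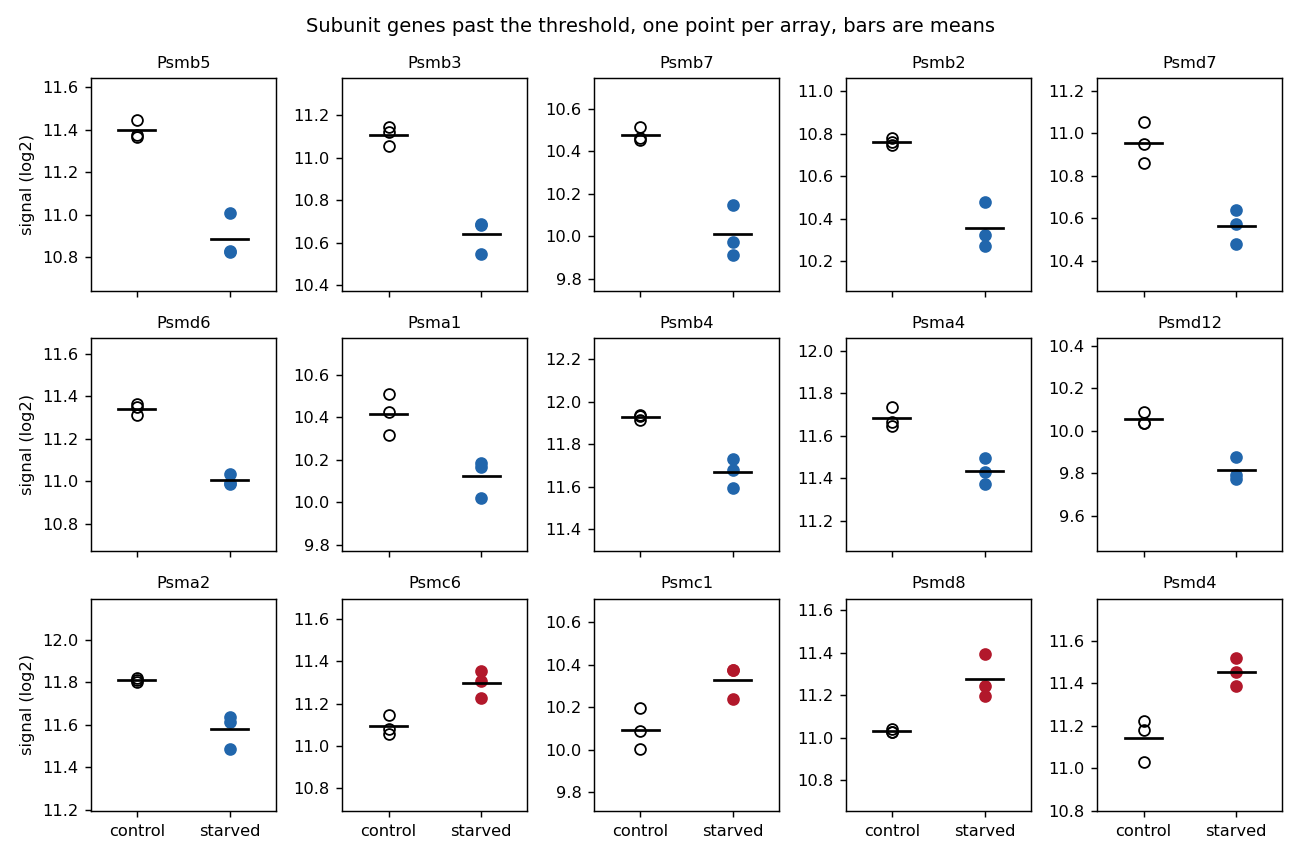
Signal (log2) in each array for the 15 members that passed the test, with open circles for the 3 control arrays, filled circles for the 3 starved arrays and bars for the means; every panel spans 1 log2 unit. The 11 genes that fell come first and the 4 that rose last, and the 4 rises lie below 0 after centring on poly-A spike-ins. The groups do not overlap in any of the 15 panels, but the panels hold only genes picked by this same test. Among all genes 54% did not overlap.

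In the 19S particle the ATPase ring showed no common direction. Of its 6 genes 2 rose and the other 4 did not pass (median 0.054), where 22.1% of all genes rose. Psmc1, an ATPase whose tail helps to open the gate of the core, had signals of 10.20, 10.001 and 10.09 in control and 10.24, 10.37 and 10.37 in starved arrays and rose by 0.23 (SE 0.079, adjusted p = 0.0364), but lay at −0.14 after centring on poly-A spike-ins. The highest control array lay just under the lowest starved array. Psmc6 had signals of 11.08, 11.06 and 11.15 in control and 11.31, 11.23 and 11.35 in starved arrays and rose by 0.20 (SE 0.07, adjusted p = 0.0399), but lay at −0.17 after that centring. Both calls were close to the threshold. Psmc1 did not pass without control replicate 2 (adjusted p = 0.139) or 3 (adjusted p = 0.0919), or without starved replicate 2 (adjusted p = 0.0993) or 3 (adjusted p = 0.0900). Psmc6 did not pass without control replicate 1 (adjusted p = 0.110), 2 (adjusted p = 0.127) or 3 (adjusted p = 0.0606), or without starved replicate 1 (adjusted p = 0.0677) or 3 (adjusted p = 0.0923). Neither passed in a fit that blocks on replicate number (adjusted p = 0.0673 and 0.0523) or with arrays centred on their median (0.18 and 0.15). The dimmer probe sets of Psmc6 did not pass and lay at −0.21 and −0.15, so its mean over probe sets was −0.054. That mean was 0.085 for Psmc1, which did not pass either. The other Psmc1 probe set was dim, with a control mean of 3.55.

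The other ATPases did not pass. Psmc3 lay at 0.11 and Psmc2 at −0.0026. Psmc5 lay at −0.16 with all starved arrays lower. Psmc4 had signals of 10.16, 10.18 and 10.16 in control and 9.60, 10.11 and 10.09 in starved arrays, so that starved replicate 1 stood apart from the others (difference −0.23, SE 0.12, adjusted p = 0.163). A second probe set of Psmc4 of like brightness fell by 0.29 (adjusted p = 0.0148 in the fit over all probe sets).

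Among the 11 non-ATPase subunits of the 19S particle 3 fell, 2 rose and the other 6 did not pass (median −0.14). This is 45.5% called, close to the 44.1% of all genes. The lid, the part that removes ubiquitin chains, holds 8 of the members, a grouping made after the values were seen. Of these 3 fell, Psmd8 rose and 4 did not pass (Psmd3, Psmd11, Psmd13 and Psmd14). The lid subunit Sem1, which the rule does not match, fell by 0.21. Psmd7, the partner of the deubiquitinase Psmd14, had signals of 10.86, 10.95 and 11.05 in control and 10.57, 10.48 and 10.64 in starved arrays and fell by 0.39 (SE 0.079, adjusted p = 0.0026). Psmd6, a scaffold of the lid, had signals of 11.35, 11.31 and 11.37 in control and 11.03, 10.99 and 10.99 in starved arrays and fell by 0.34 (SE 0.065, adjusted p = 0.00201). In both genes the starved arrays lay well below the control arrays, and a second probe set of Psmd6 fell too (−0.39). The dimmer probe sets of Psmd7 did not pass (−0.067 and −0.11), while the mean of its probe sets fell by 0.19. The scaffold subunit Psmd12 had signals of 10.09, 10.04 and 10.04 in control and 9.88, 9.77 and 9.79 in starved arrays and fell by 0.24 (SE 0.068, adjusted p = 0.016). It did not pass without control replicate 1 (adjusted p = 0.0645). The deubiquitinase Psmd14 itself did not pass at −0.13 (adjusted p = 0.149), with all starved arrays lower.

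Psmd4 and Psmd8 rose in the deposited scaling, and both lay below 0 after centring on poly-A spike-ins (−0.064 and −0.13). Psmd4, a receptor for ubiquitin chains, had signals of 11.23, 11.18 and 11.03 in control and 11.46, 11.52 and 11.39 in starved arrays and rose 1.24-fold (0.31, SE 0.078, adjusted p = 0.00881). A dimmer probe set of Psmd4 rose by 0.26, and the dimmest, with a control mean of 5.01, lay at −0.20 and did not pass. With the mean of its probe sets Psmd4 did not pass (0.12). The lid subunit Psmd8 had signals of 11.03, 11.04 and 11.03 in control and 11.40, 11.20 and 11.24 in starved arrays and rose by 0.25 (SE 0.074, adjusted p = 0.0217). Its control arrays lay close together, well below the lowest starved array. It did not pass without control replicate 1 (adjusted p = 0.0635), 2 (adjusted p = 0.0560) or 3 (adjusted p = 0.0612), or without starved replicate 1 (adjusted p = 0.0507). With any of 5 arrays left out, all but starved replicate 2, the count of 19S genes that rose was 1 or 2 in place of 4: 1 without control replicate 2 or 3, and 2 without control replicate 1 or starved replicate 1 or 3.

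Scaffold subunits of the 19S particle that did not pass were Psmd3 (−0.17), Psmd13 (−0.14), Psmd1 (−0.14), Psmd11 (−0.079) and Psmd2 (0.0074). Psmd2, which docks proteins that shuttle ubiquitinated substrates, had signals of 11.67, 11.57 and 11.58 in control and 11.65, 11.63 and 11.57 in starved arrays, and its groups overlapped. Psmd11 has 6 probe sets that disagreed. The brightest had starved signals between 10.58 and 11.10, the next brightest rose by 0.29, and the other 4 did not pass at −0.025 to −0.21. Psmd5, Psmd9 and Psmd10 match the rule by symbol but encode chaperones of 19S assembly that leave the finished particle. None of these 3 passed, at −0.13, −0.11 and 0.14. Without them the median of the 19S genes was −0.13 and the counts of 3 that fell and 4 that rose stayed as they were.

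Averaged over genes, the 20S core and the 19S particle separated in every starved array. The mean deviation of the 20S genes from their control means was −0.22, −0.29 and −0.23 in starved replicates 1, 2 and 3, and −0.013 to 0.011 in the control arrays. For the 19S genes it was −0.051, −0.038 and −0.061 in the starved arrays and −0.019 to 0.029 in the control arrays. The change of the 20S mean less that of the 19S mean was −0.20, and it lay between −0.25 and −0.17 in the starved and between −0.027 and 0.021 in the control arrays. This within-array difference does not depend on how arrays are centred, and it is given without a test, since members were chosen with earlier results known. It was −0.16 with the mean of each gene's probe sets. Within the core, the beta ring lay at −0.27 to −0.37 in the starved arrays and the alpha ring at −0.12 to −0.22.

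**Figure D3:**
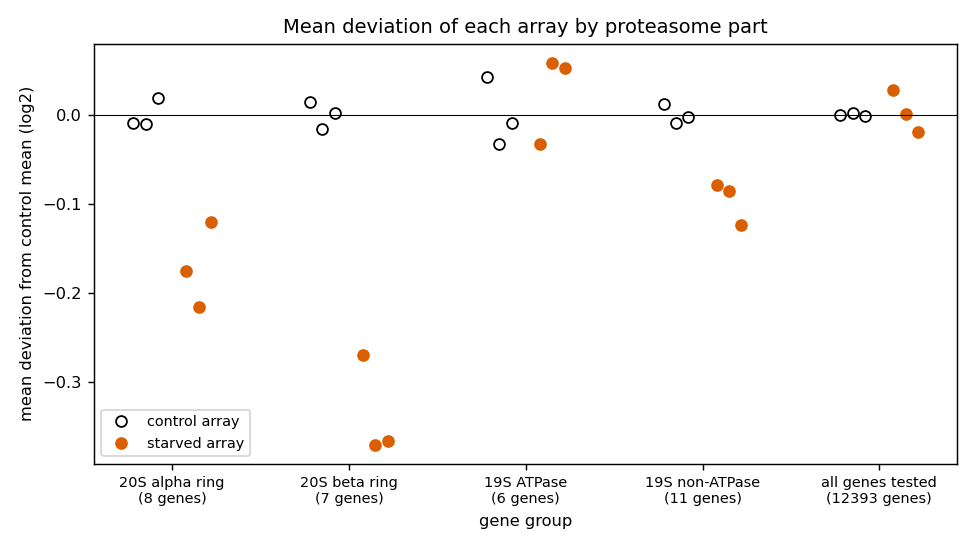
Mean deviation (log2) from the control mean over the genes of each part of the complex and over all genes, with 1 point per array; open circles are control and filled circles starved arrays. The beta ring of the starved arrays lies at −0.27 to −0.37 and the ATPase ring around 0, and the ATPase groups overlap.

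The direction of single genes depended on the array scaling, while the order of the groups held under the scalings tried. The 20S median lay below the 19S median, and the 19S median below that of all genes, in the deposited values (−0.23, −0.12 and −0.048), with each array centred on its median (−0.28, −0.17 and −0.098), on hybridization spike-ins (−0.42, −0.30 and −0.24) and on poly-A spike-ins (−0.61, −0.49 and −0.42). The last 3 shift all genes of an array alike, which keeps this order by construction. A further quantile normalization gave −0.24, −0.14 and −0.025. With centring on poly-A spike-ins all 15 of the 20S genes and 16 of the 20 of the 19S genes fell and 0 rose, where 72.1% of all genes fell and 8.21% rose. Centred on hybridization spike-ins, 15 of the 20S and 12 of the 19S genes fell, where 49.2% of all genes fell and 13.5% rose. Centred on the array median, 7 of the 19S genes fell and 2 rose, where 28.1% of all genes fell and 19.8% rose. Among the 7436 genes left after the dimmest 40% were removed, 65.7% were called, 36.1% higher and 29.7% lower. There 10 of 14 20S genes fell, and of 34 members 18 were called (52.9%), of which 4 rose.

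**Figure D4:**
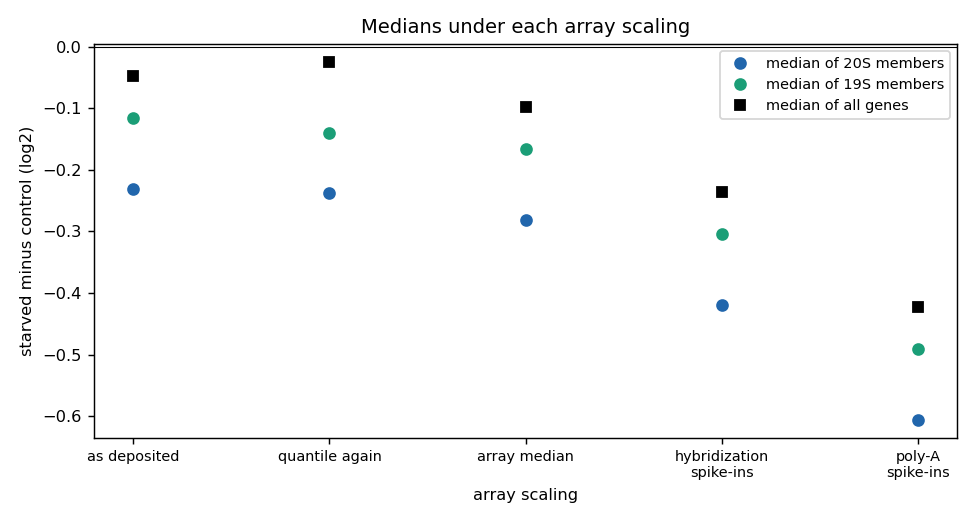
Median starved minus control difference (log2) of the 20S genes, the 19S genes and all genes under 5 array scalings. The 20S median is the lowest and the median of all genes the highest under each scaling, while the whole set moves from −0.025 to −0.42 for all genes.

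The genes that exchange for constitutive subunits rose. In the immunoproteasome, which interferon induces, Psmb9, Psmb10 and Psmb8 take the places of Psmb6, Psmb7 and Psmb5. All 3 rose, where 22.1% of all genes did: Psmb8 by 1.34 (adjusted p = 9.54e-06), Psmb10 by 0.69 (adjusted p = 3.8e-05) and Psmb9 by 0.64 (adjusted p = 0.000328). Within each array the log2 ratio of Psmb8 to Psmb5 was −5.67 ± 0.28 (SD, n = 3) in control and −3.83 ± 0.11 in starved arrays, a change of 1.85. The ratio of Psmb10 to Psmb7 changed by 1.15 and that of Psmb9 to Psmb6 by 0.70. In each of the 3 pairs all starved arrays were higher than all control arrays (exact two-sided permutation p = 0.1, the smallest that 3 arrays against 3 allow, in each, and 0.1 after Benjamini-Hochberg adjustment over the 3). For Psmb8 with Psmb5 and Psmb10 with Psmb7 this had to follow, as each gene alone separated the groups, in opposite directions. It had to follow for Psmb9 with Psmb6 too. The gap of Psmb9 (highest control 6.33, lowest starved 6.76) was wider than the overlap of Psmb6 (highest starved 10.72, lowest control 10.59). The test therefore adds nothing for any of the 3 pairs. Only the changes are meaningful, as the 2 genes of a pair are read by different probe sets.

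Proteins that cap or inhibit the core went different ways. Of 4 measured activators and inhibitors 1 rose, 1 fell and 2 did not pass, where 44.1% of all genes were called. Psme4, a nuclear cap of the 20S core, rose from 10.11 ± 0.02 (SD, n = 3) to 10.65 ± 0.06 (difference 0.53, adjusted p = 0.000138), and its dimmer probe sets rose too, by 0.65 and 0.54. With centring on poly-A spike-ins it did not pass (0.16). Psme3, another nuclear cap, fell from 8.35 ± 0.14 (SD, n = 3) to 7.75 ± 0.09 (difference −0.61, adjusted p = 0.000348). Psme1, a subunit of the interferon-inducible cap, did not pass (0.14, adjusted p = 0.128), nor did the inhibitor Psmf1 (0.099), although 1 of its other probe sets rose by 0.23 and another fell by 0.30.

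Of 6 measured genes on the list of assembly chaperones 3 fell and the other 3 did not pass (median −0.38). Of all genes 22% fell. The list holds 5 chaperones of the 20S core and Ubxn2a, a cofactor of the ATPase Vcp, which did not pass (−0.21). Psmg1 and Psmg2, which form a pair that gathers the alpha ring, both fell. Psmg1 had signals of 9.22, 9.19 and 9.21 in control and 8.72, 8.52 and 8.59 in starved arrays and fell by 0.59 (adjusted p = 0.000124). Psmg2 had signals of 10.23, 10.20 and 10.22 in control and 9.61, 9.53 and 9.87 in starved arrays and fell by 0.55 (adjusted p = 0.000755). The groups overlapped in neither gene. Psmg3 fell by 0.66 (adjusted p = 3.74e-05), while its partner Psmg4 did not pass (0.10). Pomp, which guides assembly of the beta ring, did not pass (−0.11, adjusted p = 0.212).

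Of 6 measured proteins bound to the 19S particle 3 rose, 1 fell and 2 did not pass, where 22.1% of all genes rose and 22% fell. Ecpas, an adaptor that links the core to the cap, rose by 0.52 (adjusted p = 0.000401) and the deubiquitinase Uchl5 by 0.38 (adjusted p = 0.00126), neither of which passed with centring on poly-A spike-ins (0.15 and 0.0038). Uchl5 did not pass with the mean of its probe sets (0.13) or hybridization spike-ins (0.19) either. The other Uchl5 probe set was dim, with a control mean of 3.78. Txnl1, a thioredoxin-like protein of the cap, rose by 0.24 (adjusted p = 0.0149), but another of its probe sets fell by 1.24, their mean lay at −0.13, and it lay at −0.14 after that centring. It did not pass without control replicate 2 (adjusted p = 0.0641). The lid subunit Sem1, whose symbol the rule does not match, fell by 0.21 (adjusted p = 0.0289). It passed only in the leave-one-out fit without starved replicate 1, with adjusted p between 0.0598 and 0.0875 in the other 5, namely 0.0833, 0.0674 and 0.0875 without control replicates 1, 2 and 3 and 0.0598 and 0.0671 without starved replicates 2 and 3. The deubiquitinase Usp14 did not pass (0.09, adjusted p = 0.376).

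Factors that extract substrates or carry them to the proteasome had 11 measured genes, of which 4 rose and the other 7 did not pass (median 0.12). This is 36.4% called, below the 44.1% of all genes, of which 22.1% rose. The ubiquitin-binding cofactor Faf1 rose by 0.68 (adjusted p = 3.8e-05), Nploc4 by 0.55 (adjusted p = 0.000517), Zfand2b by 0.58 (adjusted p = 0.000527) and the shuttle factor Ubqln4 by 0.61 (adjusted p = 0.00218). Of these 4 only Faf1 passed with centring on poly-A spike-ins. The ATPase Vcp, with which several of them work, did not pass (−0.045).

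Genes that control transcription of the subunits had no common direction: among 13 measured, 5 rose, 4 fell and the other 4 did not pass. This is 69.2% called, where 44.1% of all genes were. Nfe2l1 had signals of 10.36, 10.43 and 10.38 in control and 10.60, 10.61 and 10.32 in starved arrays and did not pass (0.12, adjusted p = 0.29). Its value turned on 1 array, as it passed without starved replicate 3 (0.22, adjusted p = 0.0369), and it lay at −0.25 after centring on poly-A spike-ins. Ngly1, the enzyme that removes sugars from the Nfe2l1 protein and is needed for its activity, rose by 0.57 (adjusted p = 0.00019). Bach1, a repressor at antioxidant response elements, rose by 0.55 (adjusted p = 0.000164), and the factor Stat3 rose by 0.44 (adjusted p = 0.00124). None of these 3 rises passed with centring on poly-A spike-ins, and Stat3 did not pass when its probe sets were averaged (0.21). By their brightest probe sets the NF-Y subunits went different ways: Nfyc fell by 0.47 (adjusted p = 0.000364), Nfya rose by 0.46 (adjusted p = 0.00183) and Nfyb did not pass (0.043). The dimmer probe sets of Nfya did not pass (0.062 and −0.13), and its rise was little above the poly-A shift of 0.37. Another probe set of Nfyb fell by 0.32.

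**Figure D5:**
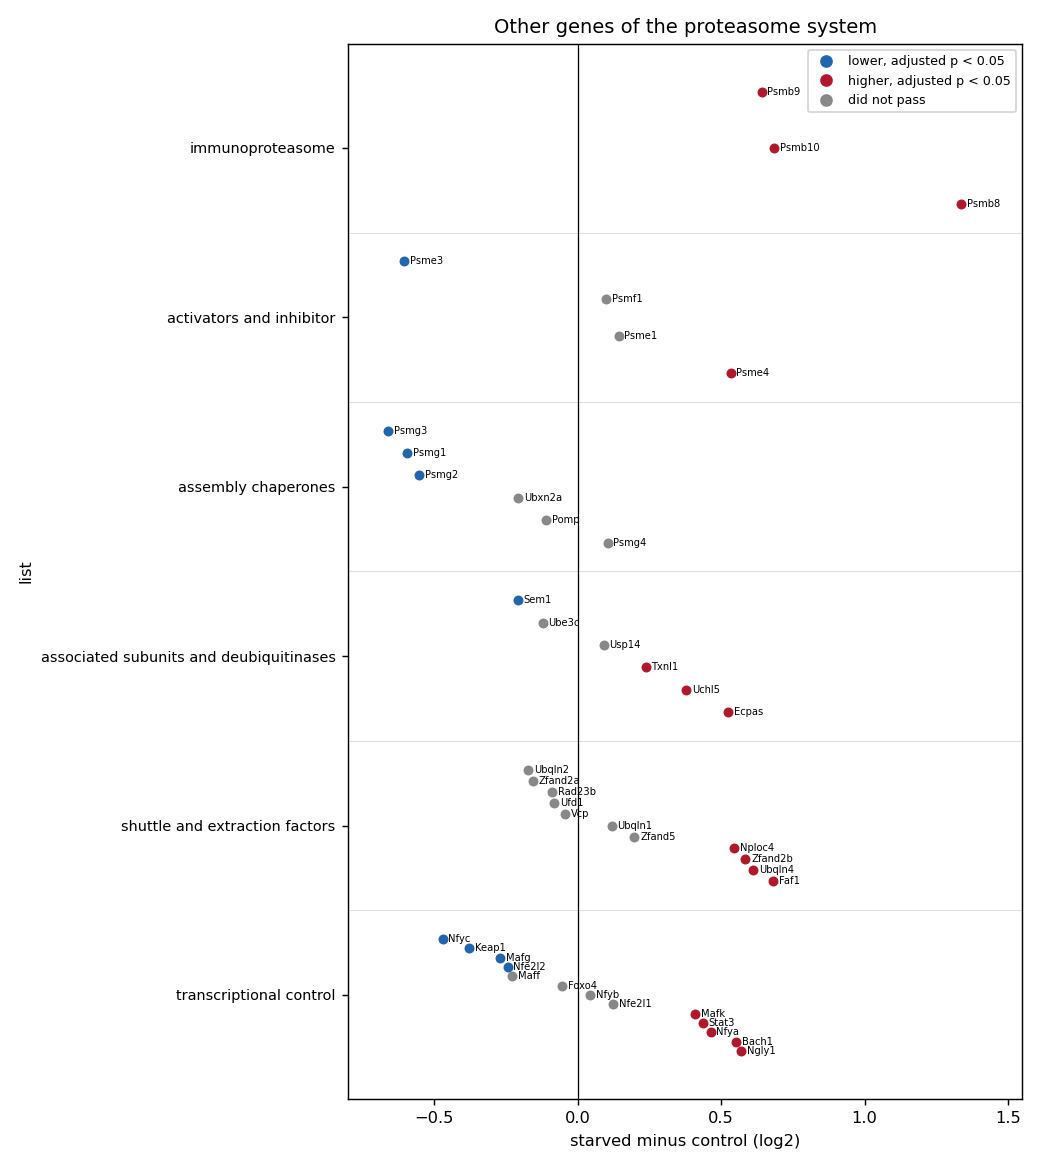
Starved minus control difference (log2) of the other measured genes of the proteasome system, 1 point per gene in rows by list, coloured where the adjusted p was below 0.05. The 3 immunoproteasome genes lie at 0.64 or above and the assembly chaperones Psmg1, Psmg2 and Psmg3 at −0.55 or below; values between 0 and 0.37, among them the rise of Txnl1, lie below 0 after centring on poly-A spike-ins.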

How the data were processed

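Per the labels, total RNA was biotin-labelled and hybridised with 1 sample per array. The authors deposited log2 signals of 22690 probe sets, made with affy and RMA per the submitters' processing notes, with versions not given in the sources used here. Quantile normalization in RMA equalises arrays, and folds of dim genes are compressed. Arrays hold no depth, and their number sets the precision.

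Gene symbols of probe sets came from the platform annotation: 20380 had 1 gene, 691 several and 1555 none listed, and 64 were controls. Only those with 1 gene were used, the brightest per gene, giving 12393 genes without a filter. The 35 members had 64 probe sets, and 17 had several. The list of ubiquitin and E1 genes was not analysed here. Groups came from sample titles. All 6 arrays were fitted by limma 3.58.1 in R 4.3.3 with lmFit and eBayes and no covariate. Its two-sided p-values were adjusted by Benjamini-Hochberg across the 12393 genes, and calls were made below 0.05. Tables and plots were made with Python 3.11.15, pandas 2.3.3 and matplotlib 3.10.9. Members and lists were chosen with earlier results of these data known. Every member is named, each with arrays' values where it passed, and from each other list up to 4 genes with the smallest adjusted p and 8 chosen genes, of which Psme2 was not analysed here. Any others, and dimmer probe sets, were picked once values had been seen. Each sequence is from RefSeq.

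The fit was tested on simulated data for starved against control in 5 simulations of 12393 genes, each with 200 that changed. It recovered 8.4% of changes of 0.25, 69.6% of 0.5, 97.2% of 1 and 100% of 2 on the log2 scale, and 4.9% of calls were false. The simulations changed far fewer genes than the real comparison called, so these shares do not carry over to it. Alternatives were other probe set choices, a filter on dim genes, other scalings, other variance models, array weights, a replicate block, each array left out, and an adjusted p below 0.01. Testing each probe set alone was added after the data were seen.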

Additional observations from a re-analysis of the deposited data

How the results depend on the processing

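Psmb5, Psmb3, Psmb7, Psmb2, Psmd6 and Psmd7 fell under all 17 alternatives that chose other settings or left out an array, and 0 of the 11 falls changed sign under them. None of the 4 rises of 19S genes passed under all 17. With the 20S genes, the count that fell was 5 to 9 over the leave-one-out fits, 4 at an adjusted p below 0.01, and 15 with centring on either spike-in set. In the 19S particle the count that rose was 1 to 3 over the leave-one-out fits and 1 at an adjusted p below 0.01. It was 1 with the mean of probe sets, 2 with centring on the array median and 0 with either spike-in set. The count that fell was 5 with trend and robust settings, 7 with centring on the median, 12 with hybridization and 16 with poly-A spike-ins. Over the leave-one-out fits 4541 to 5317 of all genes were called, and 43.7% with the mean of probe sets. The shares of all genes at an adjusted p below 0.01 and with trend and robust settings are not given here. Of all genes 28.1% fell and 19.8% rose with centring on the median. With hybridization spike-ins 49.2% fell and 13.5% rose, and with poly-A spike-ins 72.1% and 8.21%. The medians of the 20S and 19S genes were −0.28 and −0.17, −0.42 and −0.30, and −0.61 and −0.49 under these 3 centrings, and that of the 19S genes −0.14 with a further quantile normalization and −0.12 to −0.083 over the leave-one-out fits. The 20S mean less the 19S mean was −0.16 with the mean of probe sets. With centring on poly-A spike-ins the number of genes called was 9956 (hybridization spike-ins 7775), and the signs turned of Psmc1 (−0.14), Psmc3 (−0.26), Psmc6 (−0.17), Psmd2 (−0.37), Psmd4 (−0.064), Psmd8 (−0.13), Psmd10 (−0.23), Nfe2l1 (−0.25), Psme1 (−0.23), Txnl1 (−0.14) and Usp14 (−0.28). Its shift of 0.37 includes trp probe sets, without which it was 0.43. Centring on hybridization spike-ins, which lay 0.19 higher in starved arrays, also turned Psmc3, Psmd2, Psmd10, Nfe2l1, Psme1 and Usp14. The mean of probe sets turned Psmc6 (−0.054), Txnl1 (−0.13) and Usp14 (−0.13), and leaving out cross-hybridising probe sets turned Psmd11 (0.29) and Psma6 (0.022). Differences near 0 changed sign in other fits too, such as that of Psmd2 with centring on the median (−0.043). Probe sets alone turned Psma1 (0.10), Psma5 (0.13), Psma6 (0.022), Psmc1 (−0.064), Psmc6 (−0.21 and −0.15), Psmd11 (0.29) and Psmd4 (−0.20). Those of Psma1, Psma5 and Psmc1 were dim, with control means of 2.84, 3.12 and 3.55. Outside the complex probe sets alone turned Txnl1 (−1.24 and −0.073), Usp14 (−0.31 and −0.17), Psmf1 (−0.30), Uchl5 (−0.11), Stat3 (−0.034), Nfya (−0.13), Nfyb (−0.32) and Ubxn2a (0.042). The Txnl1 probe set at −0.073 and that of Uchl5 were dim too, with control means of 2.67 and 3.78. In starved and control arrays that share a replicate number, deviations from the group mean correlated at −0.0046, −0.022 and 0.0021. Among the control arrays 0 correlated best with its own number, so no pairing by number was seen. With 3 arrays per group these values cannot tell whether arrays of the same number shared a culture or batch. With the replicate block the number of genes called was 5274 in place of 5463, and 2 of the 19S genes rose under it. With 3 arrays against 3, a member that did not pass is not shown to be unchanged.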
